A study of Mus musculus with 8 samples.

Results

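The 36 genes described here encode the enzymes that build cholesterol from acetyl-CoA, the regulators and carriers that sense, move or store it, and the enzymes that build, lengthen and desaturate fatty acids. They were chosen by name from these pathways, and 35 of them are among the 23761 genes of the table. Fdft1, which encodes squalene synthase, was not analysed here. Bone marrow-derived macrophages (BMDMs), grown from marrow for 6 days with conditioned medium of L929 fibroblasts, came from mice aged 3 months. LysM mice carry Cre recombinase on both alleles at the lysozyme M gene (Lyz2, genotype LysM Cre/Cre), and the genotype of K2KO mice adds KLF2 flox/flox to it. Both groups therefore carry the Cre insertion, and deletion of Klf2 depends on where and how far Lyz2 is active. The sample descriptions mark all cultures as vehicle. There were 4 libraries of total RNA per genotype, called LysM0 to LysM3 and K2KO0 to K2KO3 here after the table columns, which give the genotype but not the mouse. Some of these names are also sample titles of the study, and a shared name does not mean the same sample.

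Cells make sterols and fatty acids from the same acetyl-CoA, and both pathways are controlled by SREBP transcription factors, which Srebf1 and Srebf2 encode. When membranes are poor in sterol, Scap escorts SREBP from the endoplasmic reticulum to the Golgi, where proteases release the active factor. When sterol is plentiful, Insig1 and Insig2 hold the complex back. Macrophages also take up much cholesterol from dead cells and lipoproteins, and store the excess as esters that Soat1 makes.

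Expression was measured as FPKM (sequenced fragments per kilobase of transcript, relative to library size), so levels can be set side by side per length of transcript. The summed FPKM lay between 497253 and 551608 in the LysM libraries and between 448235 and 501965 in the K2KO libraries (exact two-sided permutation test, p = 0.0571, where the smallest p of 4 against 4 is 0.0286). Read counts are unknown. Ratios among the lowest values placed the depth of the other libraries at 0.893 to 1.32 of that of LysM0, without a difference between genotypes (exact two-sided permutation test, p = 0.743). In bulk RNA, fewer cells of a type and less RNA per cell cannot be told apart. The macrophage genes Cd68 (1637 to 1942 FPKM), Csf1r (480 to 600 FPKM) and Adgre1 (351 to 519 FPKM) were abundant in all 8 libraries.

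Klf2, the targeted gene, was at 44.1, 52.9, 64.7 and 72.8 FPKM in LysM0 to LysM3 and at 45.5, 41.6, 59.2 and 59.3 FPKM in K2KO0 to K2KO3. The genotypes overlapped, with a log2 fold change of -0.18 (limma, standard error, SE, 0.17, adjusted p = 0.460). Values summed over a whole gene cannot tell deleted exons from the rest. Directions are therefore given for the libraries labelled K2KO.

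A few genes of the set, all of sterol metabolism, differed between the genotypes, at about the share seen over the whole table. Of the 35 listed genes, 30 had a mean of at least 1 FPKM and were tested, and 4 passed in limma, which required a Benjamini-Hochberg adjusted p under 0.05 and a log2(FPKM + 0.1) difference of more than 0.26 either way. The sterol enzymes Nsdhl and Sc5d and the cholesterol-esterifying enzyme Soat1 rose in the libraries labelled K2KO, by 0.31 to 0.40 on the log2 scale, and the mevalonate pathway enzyme Mvd fell by 0.34. These 4 are 13.3% of the genes tested here, against 18.4% of all 10920 genes tested in the table. Among all genes, 9.84% passed as higher and 8.61% as lower.

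The median log2 fold change of the 30 genes was 0.04 (0.011 over all genes tested), with 17 positive and 13 negative. For 26 of the 30, or 86.7%, the 95% interval of the difference lay within 1.5-fold either way, against 74.7% of all genes. The exceptions were Lss, Scd2, Nsdhl and Soat1, whose intervals reached 1.81, 1.75, 1.54 and 1.53-fold higher. The 8 values did not overlap between genotypes for 6 of the 30 (Mvd, Nsdhl, Sc5d, Soat1, Acly and Acaca), against 23.1% of all genes tested (12.9% with the K2KO libraries higher and 10.2% with them lower). An unadjusted p under 0.05 was reached by 8 of the 30, against 37.8% of all genes. Summed over the 35 genes, the FPKM were 484, 463, 431 and 433 in the LysM libraries and 461, 509, 478 and 484 in the K2KO libraries, or 453 ± 25.5 and 483 ± 20.02 (SD, n = 4). Soat1 and Elovl1 make up much of that sum.

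**Figure D1:**
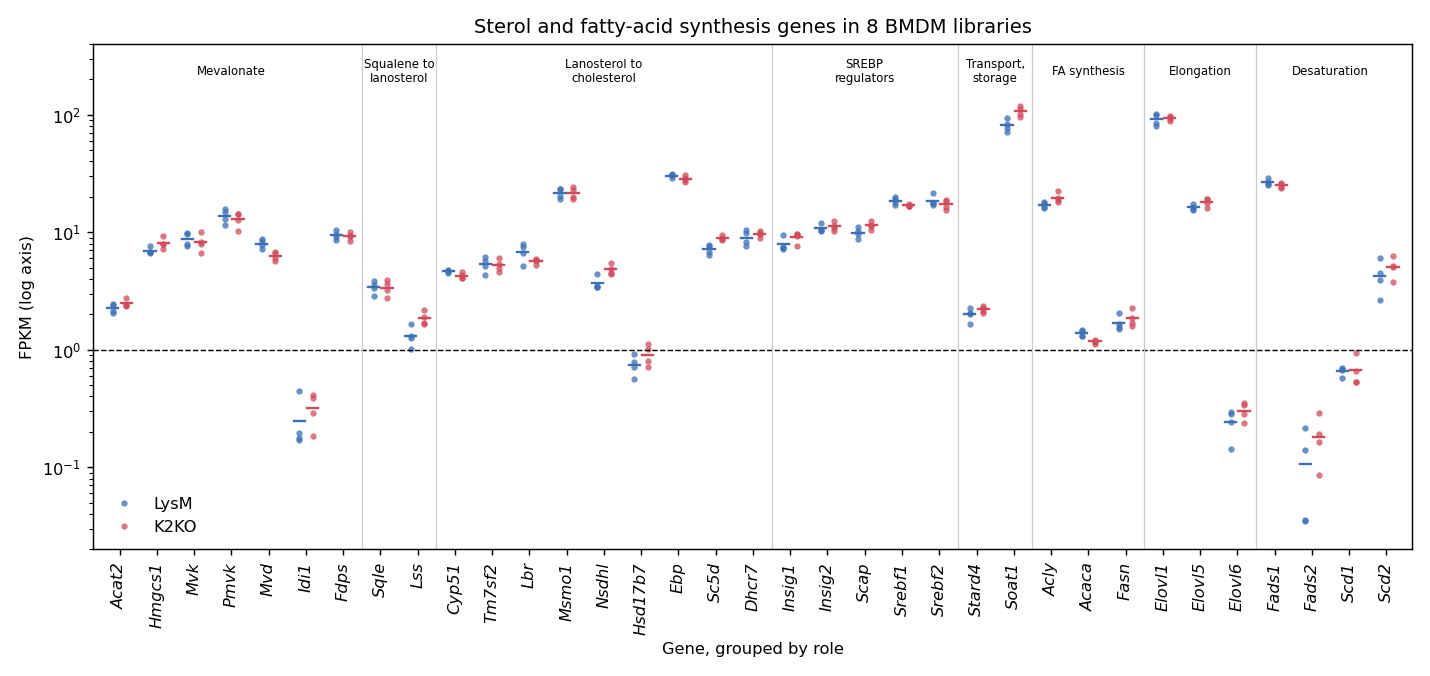
FPKM of the 35 listed genes on a log axis, with 1 point per library (blue LysM, red K2KO), a bar at the mean of 4 and the genes grouped by role. The dashed line is the mean of 1 FPKM needed for a test, and the means of Idi1, Hsd17b7, Elovl6, Fads2 and Scd1 lie below it.

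**Figure D2:**
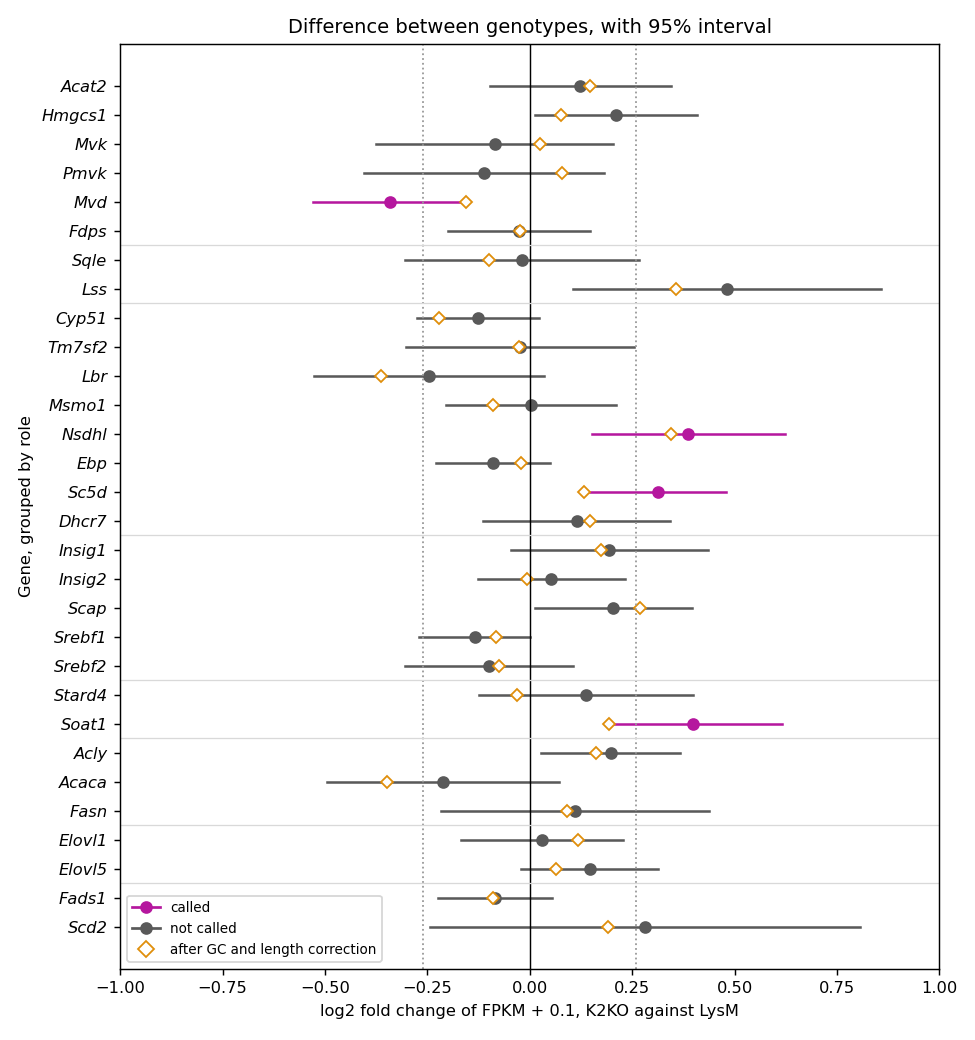
Log2 fold change of each of the 30 tested genes with its 95% interval (horizontal bars), where positive values are higher in the libraries labelled K2KO. Dotted lines mark 0.26 either way, magenta marks the 4 genes past both thresholds, and open diamonds give the value after correction for GC content and transcript length, which lies nearer to 0 for each of the 4.

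The first steps turn acetyl-CoA into the isoprene units of sterols. Mvd, on chromosome 8 of GRCm38 from 122433601 to 122443422 on the minus strand, encodes the decarboxylase that yields isopentenyl pyrophosphate. Its FPKM were 8.68, 7.78, 7.15 and 8.37 in LysM0 to LysM3 and 6.76, 6.72, 5.64 and 6.05 in K2KO0 to K2KO3. All 4 libraries labelled K2KO lay below every LysM library, at 6.29 ± 0.543 against 7.99 ± 0.675 FPKM (SD, n = 4). The log2 fold change was -0.34 (limma, SE 0.08, adjusted p = 0.0260). Mvd lies 50.1 Mb from Klf2 on the same chromosome, in a locus entry of the table that holds 104 listed genes.

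None of the other 5 tested mevalonate genes passed. Pmvk, a mevalonate pathway kinase and the most abundant of them, was at 13.1, 11.6, 14.996 and 15.8 FPKM in the LysM libraries and at 10.2, 12.7, 14.4 and 14.2 FPKM in the K2KO libraries. These ranges overlapped (log2 fold change -0.11, limma adjusted p = 0.552). Hmgcs1, which makes HMG-CoA, was at 7.63, 6.74, 6.81 and 6.60 FPKM in the LysM libraries and at 7.89, 9.38, 7.14 and 7.93 FPKM in the K2KO libraries. Of the K2KO libraries, 3 exceeded every LysM library, but the difference of 0.21 on the log2 scale did not pass (limma adjusted p = 0.113).

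The thiolase gene Acat2 (0.12, adjusted p = 0.376), the kinase gene Mvk (-0.09, adjusted p = 0.646) and Fdps (-0.03, adjusted p = 0.826), which makes farnesyl pyrophosphate, had log2 fold changes near 0. Acat2 shares near-identical sequence with Acat3 and Tcp1, so its reads may be split among them. Idi1, the isomerase that follows Mvd, was too low for a test, at 0.171 to 0.442 FPKM.

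Squalene is then oxidised and folded into lanosterol. Sqle, the squalene epoxidase and a rate-limiting enzyme of the pathway, was at 3.87, 3.35, 3.54 and 2.87 FPKM in the LysM libraries and at 3.24, 3.89, 2.74 and 3.61 FPKM in the K2KO libraries. The ranges overlapped almost wholly (log2 fold change -0.02, limma adjusted p = 0.930). Lss, the cyclase that forms lanosterol, had the largest log2 fold change of the 30 genes, 0.48 (standard error 0.17), but did not pass (limma adjusted p = 0.0685). Its FPKM were 1.67, 1.31, 1.01 and 1.26 in the LysM libraries and 1.90, 2.20, 1.65 and 1.69 in the K2KO libraries. LysM0 was the only LysM library within the K2KO range, and Lss passed when it was left out.

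Lanosterol loses methyl groups and has its bonds rearranged on the way to cholesterol. Nsdhl, on chromosome X from 72918557 to 72958514 on the plus strand, encodes a dehydrogenase of the complex that removes methyl groups from sterols. It was at 4.41, 3.42, 3.41 and 3.51 FPKM in LysM0 to LysM3 and at 5.50, 4.91, 4.44 and 4.53 FPKM in K2KO0 to K2KO3. The lowest library labelled K2KO was just above LysM0, which stood apart from the other LysM libraries. The means were 3.69 ± 0.485 and 4.85 ± 0.481 FPKM (SD, n = 4), for a log2 fold change of 0.39 (limma, SE 0.10, adjusted p = 0.0331). Xist, also on chromosome X, was higher in the libraries labelled K2KO as well, at 12.6 ± 1.39 and 17.4 ± 2.62 FPKM (SD, n = 4, log2 fold change 0.45, limma adjusted p = 0.0317, and 0.131 after correction for GC content and transcript length). Xist passed in 2 of 8 fits with 1 library left out in turn. Its ranges overlapped, and the Y-linked Ddx3y was listed at 0 in all 8 libraries. Other tested genes named here on chromosome X went both ways. The log2 fold change was 0.43 for Mbtps2, 0.31 for Acsl4, -0.09 for Ebp and -0.32 for Mid1ip1. The part of Xist in the difference of Nsdhl was not tested.

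Sc5d, on chromosome 9 from 42251595 to 42264256 on the minus strand, encodes the sterol desaturase that acts just before Dhcr7. Its FPKM were 7.82, 7.58, 6.42 and 6.84 in the LysM libraries and 8.91, 9.44, 8.68 and 8.58 in the K2KO libraries. The genotypes did not overlap, and the K2KO libraries were closely spaced (8.90 ± 0.385 against 7.17 ± 0.649 FPKM, SD, n = 4). The log2 fold change was 0.31 (limma, SE 0.07, adjusted p = 0.0232).

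The other 6 tested enzymes of these steps did not pass. Ebp, a sterol isomerase and the most abundant sterol enzyme here, was at 28.9, 30.6, 30.6 and 31.5 FPKM in the LysM libraries and at 26.6, 28.8, 31.0 and 28.1 FPKM in the K2KO libraries. Those values overlapped (log2 fold change -0.09, limma adjusted p = 0.316). Msmo1, the methyl sterol oxidase, lies 7.59 Mb from Klf2 and had the same mean in both genotypes, 21.5 ± 2.004 and 21.5 ± 2.23 FPKM (SD, n = 4). The 95% interval of its log2 fold change was -0.21 to 0.21.

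Dhcr7, a final reductase of the pathway, was at 9.001 ± 1.32 and 9.68 ± 0.519 FPKM, and Cyp51, the lanosterol demethylase, was at 4.67 ± 0.120 and 4.27 ± 0.272 FPKM (SD, n = 4). Their limma adjusted p were 0.430 and 0.186, and exons of Cyp51 overlap Akap9 on the opposite strand. Both sterol reductases that can follow Cyp51 were present: Tm7sf2 at a log2 fold change of -0.02 (adjusted p = 0.903), with exons that overlap Vps51, and Lbr, also a nuclear lamina protein, at -0.25 (adjusted p = 0.176). Lbr was at 5.13, 6.63, 7.42 and 8.02 FPKM in the LysM libraries and at 5.75, 5.72, 5.87 and 5.23 FPKM in the K2KO libraries, and it passed as lower when LysM0, its lowest LysM library, was left out. Hsd17b7, at 0.558 to 1.11 FPKM, was not tested. Exons of Hmgcs1, Lss, Lbr, Scap, Srebf1, Idi1 and Elovl6 also overlap a gene on the opposite strand. Without a stated strand setting such reads cannot be told apart. Exons of Fdps overlap Gm43738 on the same strand. Summed FPKM of the 18 listed cholesterol synthesis enzymes were 144 ± 2.93 in the LysM and 142 ± 4.84 in the K2KO libraries (SD, n = 4).

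None of the 5 regulators passed in limma, and 1, Scap, had an unadjusted p under 0.05. Srebf1 was at 18.6 ± 1.24 and 16.9 ± 0.353 FPKM (SD, n = 4), for a log2 fold change of -0.13 (limma adjusted p = 0.135). Srebf2 was at 21.5, 17.2, 17.8 and 17.7 FPKM in the LysM libraries and at 16.5, 18.3, 15.4 and 18.9 FPKM in the K2KO libraries (log2 fold change -0.10, limma adjusted p = 0.446). LysM0 was the highest of the 8 for Srebf2, and the remaining libraries of both genotypes intermingled.

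Scap was at 11.03, 10.3, 8.72 and 9.57 FPKM in the LysM libraries and at 11.2, 12.5, 11.5 and 10.4 FPKM in the K2KO libraries (log2 fold change 0.20, limma adjusted p = 0.112). Insig1, itself a target of SREBP, was at 9.40, 7.27, 7.54 and 7.31 FPKM in the LysM libraries and at 7.59, 9.59, 9.24 and 9.68 FPKM in the K2KO libraries. In each genotype a single library stood on the other side, LysM0 among the high values and K2KO0 among the low ones (log2 fold change 0.19, limma adjusted p = 0.207). Insig2, at 10.8 ± 0.855 and 11.2 ± 0.982 FPKM (SD, n = 4), had a log2 fold change of 0.05 (limma adjusted p = 0.655).

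Soat1 had the highest mean of the 35 genes in the libraries labelled K2KO, and Elovl1 was above it in each LysM library. Soat1 lies on chromosome 1 from 156424525 to 156474331 on the minus strand and encodes the enzyme that esterifies cholesterol for storage in lipid droplets. Its FPKM were 92.9, 83.4, 76.7 and 71.9 in LysM0 to LysM3 and 96.6, 119, 111 and 102 in K2KO0 to K2KO3. The libraries labelled K2KO all lay above the LysM libraries, LysM0 and K2KO0 being the closest pair. The means were 81.2 ± 9.13 and 107 ± 9.79 FPKM (SD, n = 4), for a log2 fold change of 0.40 (limma, SE 0.10, adjusted p = 0.0241). Stard4, which carries cholesterol between membranes, was at 2.005 ± 0.265 and 2.20 ± 0.125 FPKM (SD, n = 4) and did not pass (limma adjusted p = 0.409).

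**Figure D3:**
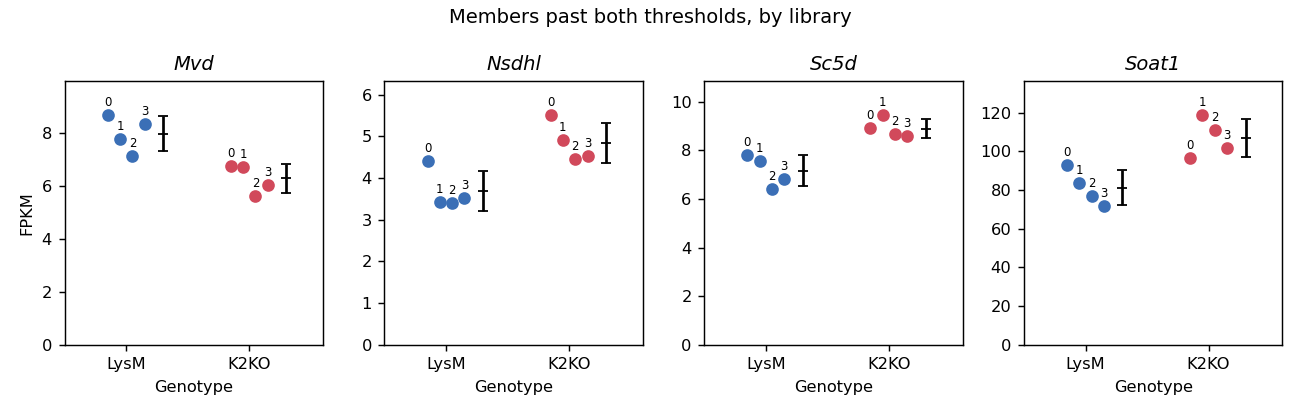
FPKM of Mvd, Nsdhl, Sc5d and Soat1 in each library (points, numbered as the columns), with the mean and SD of 4 beside them on axes that start at 0. The genotypes do not overlap for any of the 4, and the gap is narrowest for Nsdhl, between 4.41 FPKM in LysM0 and 4.44 FPKM in K2KO2.

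Fatty acid synthesis starts with Acly, which splits citrate into acetyl-CoA. It was at 18.02, 17.8, 16.5 and 16.0 FPKM in the LysM libraries and at 19.5, 22.2, 18.7 and 18.2 FPKM in the K2KO libraries. The ranges did not overlap, yet the log2 fold change of 0.20 was under the limit and the limma adjusted p was 0.0895. Acaca, the carboxylase that makes malonyl-CoA, did not overlap in the other direction, at 1.38 ± 0.0853 and 1.18 ± 0.0405 FPKM (SD, n = 4), with a limma adjusted p of 0.242. Its reads may be shared with the near-identical Gm5182. Fasn, the synthase that makes palmitate, was low and much alike in both genotypes, at 1.70 ± 0.250 and 1.85 ± 0.283 FPKM (SD, n = 4, limma adjusted p = 0.599).

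Elovl1, which lengthens very long saturated chains, had the highest mean of the 35 genes in the LysM libraries and was next to Soat1 in the K2KO libraries, at 99.9, 102, 80.5 and 85.4 FPKM in the LysM libraries and at 91.8, 96.3, 87.9 and 98.3 FPKM in the K2KO libraries. The K2KO libraries lay inside the LysM range (log2 fold change 0.03, limma adjusted p = 0.822), and exons of Elovl1 overlap Cdc20 on the opposite strand. Elovl5, an elongase of polyunsaturated chains, had a log2 fold change of 0.15 (limma adjusted p = 0.178). Elovl6, which turns palmitate into stearate, was at 0.143 to 0.353 FPKM and was not tested.

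Fads1 led the desaturases, at 28.9, 25.8, 26.6 and 25.0 FPKM in the LysM libraries and at 24.5, 25.99, 23.9 and 25.8 FPKM in the K2KO libraries. The genotypes overlapped (log2 fold change -0.09, limma adjusted p = 0.336). Fads2, which acts in the same pathway of polyunsaturated fatty acids, was at only 0.0352 to 0.292 FPKM. Of the genes that make oleate, Scd1 was at 0.657 ± 0.0599 and 0.666 ± 0.194 FPKM (SD, n = 4) and was not tested. Scd2 was at 2.63, 3.90, 4.51 and 6.01 FPKM in the LysM libraries and at 6.24, 3.80, 5.19 and 5.04 FPKM in the K2KO libraries. Its spread within each genotype was wider than the difference between them (log2 fold change 0.28, 95% interval -0.24 to 0.81, limma adjusted p = 0.398), and it shares a near-identical stretch with Scd1. None of the 7 tested fatty acid enzymes passed in limma, and 1, Acly, had an unadjusted p under 0.05. The 10 together summed to 160 ± 11.3 and 166 ± 5.86 FPKM (SD, n = 4).

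Promoters of the 4 genes that passed are shown with that of Hmgcs1, the only gene of the 29 with a promoter sequence here that holds the letters of the classical SREBP binding element searched here. Each is the run of 160 bases that ends just before the transcription start in the RefSeq promoter table (GRCm38.p6), 5′ to 3′ on the strand of the gene. Capitals mark TCACNCCAC (sterol regulatory element), CCAAT (bound by NF-Y) and GGGCGG (bound by Sp1-type factors), on either strand.
Mvd (chr8:122443423-122443582, minus strand): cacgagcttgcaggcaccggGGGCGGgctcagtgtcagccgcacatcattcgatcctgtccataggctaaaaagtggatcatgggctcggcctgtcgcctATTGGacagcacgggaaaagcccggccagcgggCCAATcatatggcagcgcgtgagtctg
Nsdhl (chrX:72918361-72918520, plus strand): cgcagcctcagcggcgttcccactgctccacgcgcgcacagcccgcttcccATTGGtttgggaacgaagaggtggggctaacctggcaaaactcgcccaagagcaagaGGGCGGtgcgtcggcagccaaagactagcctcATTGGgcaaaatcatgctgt
Sc5d (chr9:42264301-42264460, minus strand): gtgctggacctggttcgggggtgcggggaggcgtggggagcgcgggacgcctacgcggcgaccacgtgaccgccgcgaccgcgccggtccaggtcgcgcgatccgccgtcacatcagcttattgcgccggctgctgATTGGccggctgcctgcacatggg
Soat1 (chr1:156474329-156474488, minus strand): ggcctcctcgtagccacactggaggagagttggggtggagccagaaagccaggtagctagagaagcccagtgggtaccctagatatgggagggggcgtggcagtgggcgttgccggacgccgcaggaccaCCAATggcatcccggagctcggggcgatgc
Hmgcs1 (chr13:119690191-119690350, plus strand): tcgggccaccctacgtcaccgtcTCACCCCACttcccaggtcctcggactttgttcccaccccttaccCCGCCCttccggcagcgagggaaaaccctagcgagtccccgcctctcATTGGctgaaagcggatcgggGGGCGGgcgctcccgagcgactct

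Of the 35 genes, 29 had a promoter in that table, each from 250 bases before to 50 after the start. The longer form of that element, TCACCCCAC preceded by A, was in 0 of the 29 (0.0999% of the promoters of all 27025 genes), and TCACNCCAC was in 1 (1.44% of all). CCAAT stood in 24 of the 29, or 82.8%, against 41.1% of all, GGGCGG likewise in 82.8% against 38.2%, and the E-box CACGTG in 6, or 20.7%, against 8.09%. CACCC, the core of sites bound by Krüppel-like factors, which was added after the values were seen and lies within TCACCCCAC, stood in 69.0% against 59.8%. The promoters of Nsdhl, Sc5d and Soat1 hold CACCC and that of Mvd does not. The shares of all genes include genes below the level needed for a test, and shares among the tested genes alone were not computed. A match of letters does not show binding.

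Differences between the genotypes varied with GC content over the whole table. Across all genes the log2 fold change fell as the GC content of the longest transcript rose (Spearman's rho -0.40 across 10899 genes), and the 30 genes had a rho of -0.42. Genes are not independent replicates, and these values are a description. In the highest eighth of GC content, which holds Mvd at 59.0%, 21.9% of all genes passed as lower and 1.98% as higher. In the second eighth, which holds Soat1 at 44.1% and Sc5d at 42.9%, 18.1% passed as higher and 2.06% as lower. In the third, which holds Nsdhl at 45.8%, 11.2% passed as higher and 4.33% as lower.

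After each library was corrected for GC content and transcript length, none of the 4 passed. The log2 fold change became -0.16 for Mvd (limma adjusted p = 0.282), 0.34 for Nsdhl, from 0.39 (adjusted p = 0.0991), 0.13 for Sc5d (adjusted p = 0.277) and 0.19 for Soat1 (adjusted p = 0.129). Nsdhl passed when a block on the column number was added to the correction (limma adjusted p = 0.0433). With the correction alone, Scap was the only gene of the set to pass, at 0.27 (limma adjusted p = 0.0482), and 10% of all genes did.

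**Figure D4:**
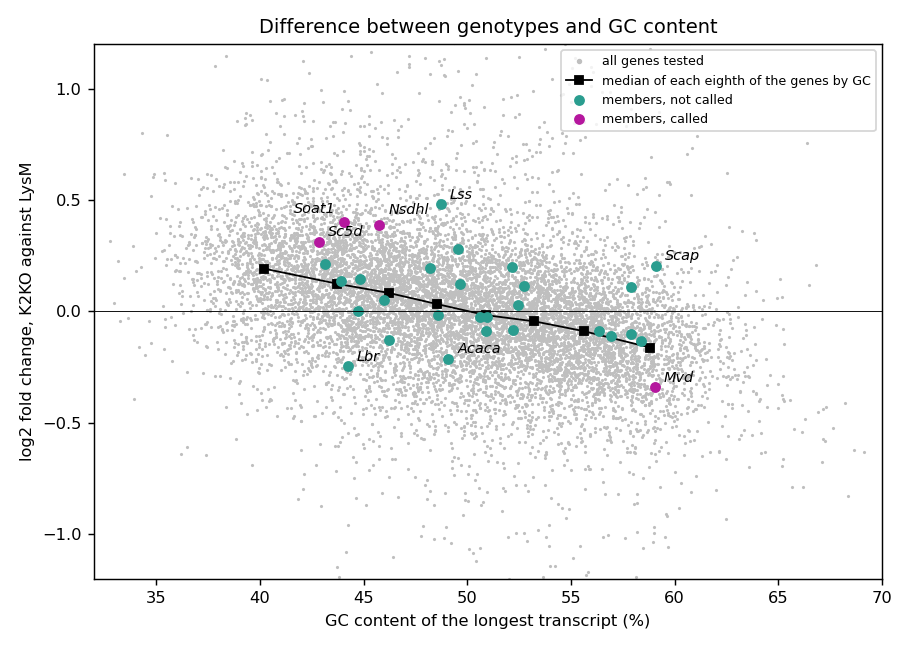
Log2 fold change of all genes tested (grey) and of the 30 genes (teal, or magenta where past both thresholds) against the GC content of the longest transcript in percent. Black squares are the median of each eighth of the genes by GC content and fall from 0.19 at the lowest to -0.16 at the highest. All 4 genes past both thresholds lie on the side of 0 to which the median of their eighth leans.

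With 1 library left out in turn, the log2 fold change lay between -0.39 and -0.29 for Mvd, 0.33 and 0.47 for Nsdhl, 0.26 and 0.36 for Sc5d and 0.34 and 0.47 for Soat1, while the calls varied. No gene of the set passed without LysM3, without K2KO1 or without K2KO2, where 337, 726 and 496 genes of the table passed in limma. In these fits 5, 5 and 7 of the 30 had an unadjusted p under 0.05, against 3199, 3401 and 3496 of all 10920 genes. Sc5d alone passed without LysM1, Mvd alone without LysM2 and Soat1 alone without K2KO0. The same 4 genes passed without K2KO3, and all 4 with Lss and Lbr passed without LysM0.

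Within the LysM genotype, LysM0 stood high for most of the 30 genes. It was the highest LysM library for 18 of the 30 genes, or 60.0%, against 27.4% of all genes tested. It exceeded the mean of the other LysM libraries for 11 of the 16 tested cholesterol synthesis enzymes and for 6 of the 7 tested fatty acid enzymes, against 46.2% of all genes. Its median excess over the mean of the other 3 LysM libraries was 0.16 on the log2 scale for the 30 genes and -0.017 for all genes. The largest excesses among the 30 genes were those of Lss (0.46), Fasn (0.36), Nsdhl (0.35), Insig1 (0.35) and Tm7sf2 (0.30). Scd2 (-0.82) and Lbr (-0.51) were lower in LysM0 instead. Among the K2KO libraries, K2KO1 exceeded the mean of the other 3 for 24 of the 30 genes, against 52.9% of all genes, and was the highest for 12, or 40.0% against 30.6% of all genes.

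**Figure D5:**
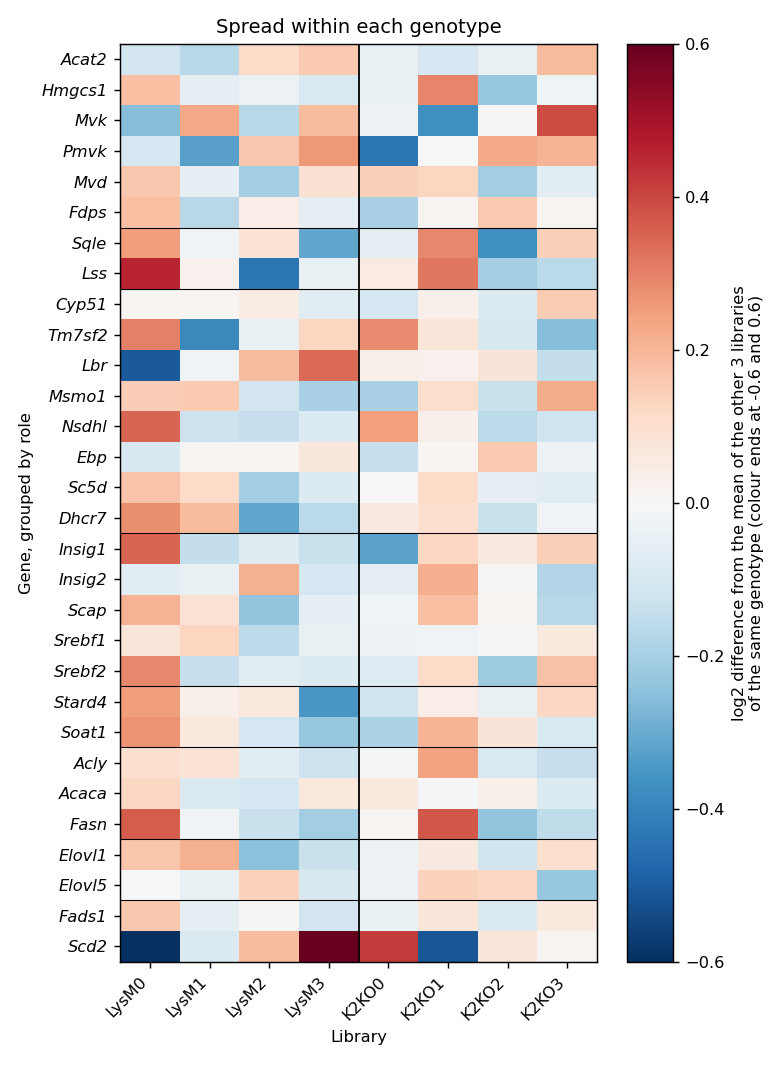
Difference of each library from the mean of the other 3 libraries of its genotype, on the log2 scale, for the 30 tested genes (rows, by role). Red is higher and blue lower, with the colour scale ending at 0.6 either way. The column of LysM0 is red for 23 of 30 genes (46.2% of all genes were higher there) and that of K2KO1 for 24 (52.9%).

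Neighbouring steps of the same metabolism were read from 5 lists of 58 further genes, of which 57 were listed, 43 were tested and 10 passed, 6 as higher and 4 as lower in the libraries labelled K2KO. That is 23.3% of those tested, against 18.4% of all genes (9.84% higher and 8.61% lower), which is also the share to set beside the count of each list. After the GC content and length correction 2 of the 10, Lpin2 and Pggt1b, passed. Lpin2, a phosphatase that makes diacylglycerol for lipid synthesis, was at 20.96, 18.8, 19.8 and 17.5 FPKM in the LysM libraries and at 27.2, 24.5, 27.9 and 28.6 FPKM in the K2KO libraries. The genotypes were well apart, at 19.3 ± 1.47 and 27.0 ± 1.79 FPKM (SD, n = 4), with a log2 fold change of 0.49 (limma, SE 0.07, adjusted p = 0.00834). It passed with each of the 8 libraries left out in turn and under the 11 other settings. The other 9 were less stable, and with 1 library left out in turn Pggt1b and Mlycd passed in 6 of 8 fits, Mbtps2 and Nus1 in 4, Tecr in 3, Acsl1, Acsl4 and Mid1ip1 in 2 and Slc25a1 in 1. None of these 9 passed in limma without LysM3 or without K2KO2. Of the 12 tested genes of fatty acid activation and esterification, Acsl1 and Acsl4, which activate long-chain fatty acids, also rose, each by 0.31 (limma adjusted p = 0.0261 and 0.0352). After the correction Acsl1 and Acsl4 were at 0.14 and 0.07 (limma adjusted p = 0.156 and 0.474).

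Of the 9 tested genes of the isoprenoid branch, 2 passed, both as higher. Pggt1b, a subunit of the enzyme that attaches geranylgeranyl groups to proteins, was at 1.28 ± 0.0621 and 2.18 ± 0.375 FPKM (SD, n = 4), for a log2 fold change of 0.71 (limma adjusted p = 0.0158). Nus1, a subunit of the enzyme that makes dolichol precursors, was at 19.1 ± 1.47 and 23.9 ± 1.39 FPKM (SD, n = 4), for a log2 fold change of 0.33 (limma adjusted p = 0.0193). Of the 10 genes of SREBP cleavage and sterol-regulated degradation, 1 passed. It was Mbtps2, the intramembrane protease that completes the release of SREBP, which rose from 3.46 ± 0.342 to 4.70 ± 0.390 FPKM (SD, n = 4, log2 fold change 0.43, limma adjusted p = 0.0178). After the GC content and length correction Nus1 was at 0.14 and Mbtps2 at 0.21 (limma adjusted p = 0.123 and 0.133). Pggt1b was then at 0.48 (limma adjusted p = 0.0368).

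Fatty acid precursor supply was the list with the lowest median log2 fold change, -0.32, and 3 of its 6 tested genes fell. Slc25a1, the carrier that exports citrate from mitochondria, was at 65.4, 67.8, 61.6 and 65.4 FPKM in the LysM libraries and at 51.4, 48.2, 47.6 and 62.4 FPKM in the K2KO libraries. K2KO3 lay within the LysM range and the other K2KO libraries below it (log2 fold change -0.32, limma adjusted p = 0.0356). Mid1ip1, which promotes assembly of acetyl-CoA carboxylase, fell by 0.32 (limma adjusted p = 0.0354). Mlycd, which breaks malonyl-CoA down and so does not supply it, also fell by 0.32 (limma adjusted p = 0.0160). After the GC content and length correction the median of this list was -0.16 and none of the 3 passed. Slc25a1, Mid1ip1 and Mlycd were then at -0.12, -0.19 and -0.20 (limma adjusted p = 0.175, 0.165 and 0.0607). Of the 6 tested genes of other elongation and desaturation steps, 1 passed. It was Tecr, the reductase that ends each elongation cycle, at 112, 107, 96.5 and 105 FPKM in the LysM libraries and 78.6, 82.0, 82.1 and 96.3 FPKM in the K2KO libraries (log2 fold change -0.31, limma adjusted p = 0.0271). Tecr was at -0.13 after the correction (limma adjusted p = 0.193). Of the 10 genes that passed, Tecr, Acsl1 and Mlycd share chromosome 8 with Klf2, at 11.3, 25.8 and 47.1 Mb from it.

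Genes of other cell types were low, apart from neutrophil genes. Summed marker FPKM were at most 0.700 for T cells (4 genes, led by Trac), 2.07 for B cells (3 genes, led by Cd79a), 0.0418 for adipocytes (2 genes, led by Plin1) and 0.273 for erythroid cells (2 genes, led by Klf1). The 4 fibroblast genes, led by Dcn, summed to 0.427, 1.16, 0.199 and 0.135 FPKM in the LysM libraries and to 2.96, 0.805, 0.521 and 1.63 FPKM in the K2KO libraries. The 3 dendritic cell genes, led by Flt3, summed to 0.264, 0.731, 0.503 and 0.784 FPKM in the LysM libraries and to 0.895, 1.02, 0.642 and 1.59 FPKM in the K2KO libraries. Both sums had higher means in the K2KO libraries with overlapping ranges, Siglech of the dendritic cell genes did not overlap (at most 0.295 FPKM in LysM and at least 0.339 FPKM in K2KO), and none of these genes reached the mean of 1 FPKM needed for a test. The 7 neutrophil and granulocyte precursor genes summed to 154, 226, 201 and 276 FPKM in the LysM libraries and to 150, 248, 193 and 264 FPKM in the K2KO libraries, with S100a9 the most abundant. LysM0 and K2KO0 had the lowest sums of their genotypes. Ly6g, a marker of mature neutrophils, was at no more than 0.357 FPKM. Of the 6 neutrophil and granulocyte precursor genes tested, 1 passed, against 18.4% of all genes tested. It was Camp, a granule gene of neutrophil precursors, which fell from 13.6 ± 2.21 to 6.40 ± 2.53 FPKM (SD, n = 4, log2 fold change -1.14, limma adjusted p = 0.0178, and 0.0299 after the GC content and length correction). The other 5 did not pass, with log2 fold changes of 0.47 for Elane, 0.27 for S100a8, 0.17 for Mpo, -0.0035 for Ltf and -0.07 for S100a9. The 4 proliferation genes, led by Cdk1, summed to 13.7 ± 0.917 and 12.5 ± 1.19 FPKM (SD, n = 4), and neither of those tested passed. Of the 8 macrophage genes, 2 passed, against the same 18.4% of all genes. Mertk rose by 0.36 (limma adjusted p = 0.0285, and 0.0752 after the correction). Lyz2, which carries the Cre and has the near-identical copy Lyz1, fell by 0.49 (limma adjusted p = 0.0260, and 0.0486 after the correction). Camp and Lyz2 thus still passed after the correction, and Mertk did not. With 1 library left out in turn, Camp passed in 5 of 8 fits, Lyz2 in 4 and Mertk in 2. The part of these cells in the differences above was not tested.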

How the data were processed

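Total RNA of BMDMs from 4 LysM and 4 K2KO cultures was sequenced on a HiSeq with a stranded total RNA kit. The methods name TopHat2 and Cufflinks, and the submitters' processing notes name STAR, Cufflinks, Cuffdiff and mm10, without versions. The authors deposited 1 table of FPKM, not pooled. Whether counting used strand is not given in the sources used here, and the labels and the methods name different RNA isolation kits. All 8 columns gave the genotype and no single mouse, and the study describes the 4 libraries per genotype as biological replicates.

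The genes, the lists and the rule for naming genes were chosen with earlier results of these data known. The rule names Klf2, all 36 genes by role, the genes of the 5 further lists that passed and the leading markers. For genes with a mean of at least 1 FPKM, log2(FPKM + 0.1) was fitted on genotype alone in limma 3.58.1 (R 4.3.3, lmFit, then eBayes allowing an intensity trend), and Benjamini-Hochberg adjustment covered all 10920 genes. A gene passed at an adjusted p under 0.05 and a log2 fold change over 0.26 in size. A pseudocount makes the fold change of low genes smaller than their ratio. Of 23761 genes, 23645 were matched to GENCODE M21 for position, length and GC content. Near-identical copies (at least 95% over at least 200 bases) were found with blastn 2.17.0. Correction for GC content and length used local regression per library (span 0.3). Alternatives were other pseudocounts (1, 0.01), filters (0.1 FPKM, none) and scalings (quantile, upper quartile), no intensity trend, no limit on the fold change, a block on the column number, and each library left out. Tested on simulated data of 10920 genes with 200 changed by 1 on the log2 scale, the fit recovered 85.0%, with 3 false among 173 calls. That change is larger than those of the genes of the set that passed, and the simulated noise was independent between genes. These shares therefore do not apply to the calls reported above.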

Additional observations from a re-analysis of the deposited data

Results flagged for a closer look

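Of 98 groups of 4 values examined (the 35 listed genes, the 10 further pathway genes that passed, Klf2, Mertk, Lyz2 and Camp, in each genotype), 4 held a value far from the other 3, where chance alone gives about 4.9. All 4 were LysM0. Idi1 was at 0.442 FPKM in LysM0 and at 0.171 to 0.197 FPKM in the other LysM libraries. Nsdhl was at 4.41 FPKM against 3.41 to 3.51 FPKM. Insig1 was at 9.40 FPKM against 7.27 to 7.54 FPKM, and Srebf2 at 21.5 FPKM against 17.2 to 17.8 FPKM. Without LysM0, Nsdhl, Sc5d, Soat1 and Mvd still passed in limma, and Lss and Lbr passed with them. The cause was not tested.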

How the results depend on the processing

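FPKM carry no counts, so counting error is unknown and the 4 libraries per genotype set the precision. The same 4 genes passed with a pseudocount of 1 or 0.01, a filter at 0.1 FPKM, no intensity trend and no limit on the fold change. Without a filter, 2 of the set passed (0 lower) and 1090 genes in all. With quantile scaling 2 passed (1 higher). With upper-quartile scaling none of the set was lower (0), and 64.1% of all calls were higher against 53.3%. After GC content and length correction 1 passed (1 higher, 0 lower) and 1095 genes in all. The median log2 fold change of the set, 0.04, became 0.11 with a filter at 0.1 FPKM or none, which adds the 5 low genes. With 1 library left out in turn, 0 to 6 passed (0 to 4 higher, 0 to 2 lower), 337 to 2837 genes in all, and the median was 0.011 to 0.067. Same-numbered columns did not vary together (correlations -0.07, 0.02, 0.07 and -0.06). No pairing by column number was seen, which does not show that there was none. A replicate block on them left the same 4 genes (2057 in all). With the block and the correction together 1 passed, Nsdhl (1 higher, 0 lower), and 864 genes in all. Fold changes near 0 turned sign. The correction, with or without the block, gave 0.026 for Mvk, 0.078 for Pmvk, -0.089 for Msmo1, -0.0077 for Insig2, -0.032 for Stard4 and 0.039 for Klf2. Upper-quartile scaling gave 0.018 for Fdps, 0.025 for Sqle and 0.019 for Tm7sf2. Leaving out 1 library gave -0.18 to 0.0056 for Mvk, -0.067 to 0.022 for Fdps, -0.096 to 0.074 for Sqle, -0.12 to 0.052 for Tm7sf2, -0.053 to 0.051 for Msmo1, -0.0025 to 0.11 for Insig2 and -0.031 to 0.084 for Elovl1. The causes were not tested.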
